A study of Rattus norvegicus with 9 samples.

Results

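Kidneys of rats modelling chronic kidney disease (CKD) were set against control kidneys, as 3 libraries of each, out of 9 libraries in the whole series. The members were taken by their sample titles, which name them as control or as CKD model, and no measured value entered the choice. All animals were SD rats (Sprague-Dawley, an outbred laboratory stock) and the tissue was labelled kidney throughout. The labels do not say how the disease was induced, nor the age or sex of the animals, the time of sampling, or whether the control animals had a sham procedure. The other 3 libraries, from kidneys treated with mesenchymal stem cells (MSC), enter here through the shared fit and as values beside single genes. That fit covers the filter on low counts, the scaling, the estimate of the spread and the average level used to name genes. Nothing in the labels states that the replicates of a group were separate animals, so a p-value below measures the spread between these libraries, part of which may be technical.

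Chronic kidney disease is a lasting loss of kidney function in which injured tubules, interstitial inflammation and scarring replace working nephrons. In the usual rodent models, kidney RNA is known for higher transcripts of tubular injury, matrix and leukocyte genes and for lower transcripts of proximal tubule transporters and of fatty acid oxidation. In whole-kidney RNA, fewer cells of a type and less RNA per cell cannot be told apart. The genes measured here carried Ensembl identifiers and no symbols. No name could be found for any of the 22637 identifiers, so the tissue label and the disease label were not checked against marker genes. What follows therefore describes groups of genes by their level, the size of their difference and how well the replicates held together. Identifiers are printed for 4 genes chosen by a rule of size, and other single genes are given by their rank.

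Total counts were 53059872 to 54234681 in the control libraries and 56442995 to 58546847 in the CKD libraries, without overlap between the groups. At this depth a count of 0 allows up to 3 counts, or 0.0478 to 0.0615 CPM (a count relative to the size of its library) in these 6 libraries. That limit covers counting error only. Libraries of both groups had similar numbers of genes above 0, with 18787 ± 238 in control and 19054 ± 359 in CKD kidneys (SD, n = 3 each, two-sided exact permutation test p = 0.5). The 10 most abundant genes held 13.0% ± 1.05 of the counts in control and 11.8% ± 0.857 in CKD kidneys (SD, n = 3 each, exact permutation test p = 0.3). A p of 0.1 is the smallest that 3 libraries against 3 allow.

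CKD and control kidneys were compared over all genes to ask what the disease model had changed. By edgeR's quasi-likelihood test 0 of 17584 tested genes (0%) passed an adjusted p of 0.05, and the smallest adjusted p was 0.207. Before adjustment 1151 genes (6.55%) had p under 0.05, of which 680 (3.87% of all tested genes) were higher and 471 (2.68%) lower in CKD kidneys. With library size as the only scaling the split was 731 higher and 260 lower, and without CKD replicate 2 it was 326 and 360. A flat distribution of p-values over these genes would place 879 under that threshold. Under 0.01 there were 180 genes, against 176 in a flat distribution, and under 0.001 there were 27, against 17.6. limma-voom also called 0 genes, with 1015 (5.77%) under an unadjusted p of 0.05. DESeq2 called 71 genes (0.404%), 43 higher (0.245%) and 28 lower (0.159%) in CKD kidneys, with 1470 (8.36%) under an unadjusted p of 0.05. The unadjusted edgeR count depended on CKD replicate 2, without which 686 genes were counted, of which 462 were among the 1151.

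Most differences were small. The median absolute log2 fold between the groups was 0.18 over all tested genes, and 95% of genes lay within 1.29 on the log2 scale. The 95% interval of the fold stayed within 2-fold either way for 64% of the 17552 genes that had an interval, and within 1.5-fold for 40.6%. Precision followed the level of the gene, taken as the mean of both groups' mean CPM. In the 5861 genes with the highest level, from 31.6 CPM upwards, the median absolute log2 fold was 0.12 and the interval reached a median of 0.30 to either side. In the 5862 genes with the lowest level, up to 4.45 CPM, these values were 0.41 and 1.26. For scarce genes the median interval thus spanned more than 2-fold either way. The share of genes with an unadjusted p under 0.05 was similar at all levels, at 6.6%, 6.64% and 6.4% from the lowest to the highest level.

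**Figure D1:**
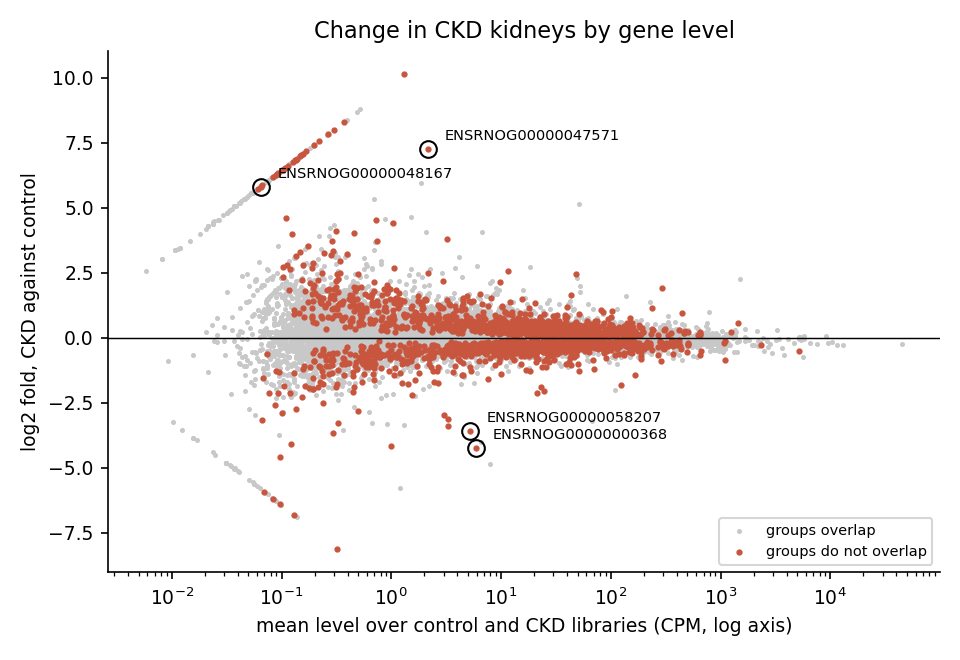
Fitted log2 fold of CKD against control (vertical axis) by mean level over the 6 libraries in CPM (horizontal log axis), with 1 point per tested gene. Red points are genes whose 3 CKD and 3 control values did not overlap, black circles mark the 4 genes named in the text, and the slanting lines of points are genes at 0 counts in all libraries of 1 group, whose fitted fold follows from their level.

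Distances between whole libraries were as large within a group as across groups. The median absolute log2 difference over genes was 0.215, 0.249 and 0.279 for the 3 pairs of controls. For the 3 pairs of CKD libraries it was 0.240, 0.284 and 0.324. For the 9 pairs of a CKD with a control library it ran from 0.180 to 0.391, with a median of 0.265. The closest pair of all was CKD replicate 1 with control replicate 1, and CKD replicate 1 also lay nearer to control replicate 2 (0.205) than any 2 controls lay to each other. The farthest pair was CKD replicate 2 with control replicate 3. Every pair that held CKD replicate 2 was farther apart (0.284 or more) than every pair without it (0.279 or less). The first principal component of the 6 libraries held 33.1% of the variance and placed CKD replicate 2 at 80.9, CKD replicate 1 at 15.8 and CKD replicate 3 at -28.1. The controls lay at -6.74, -9.32 and -52.5, so CKD replicate 3 fell among the controls on this axis.

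**Figure D2:**
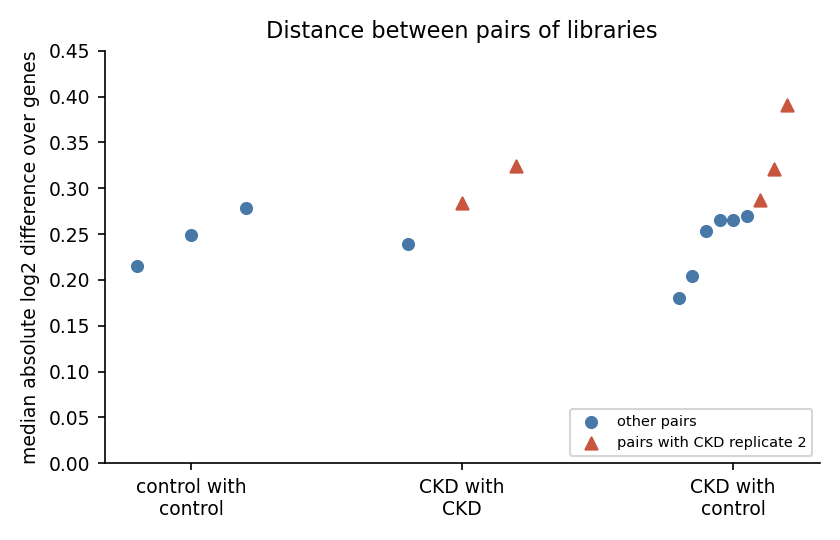
Median absolute difference in log2 CPM over all tested genes (vertical axis) for each pair of libraries, grouped by the kind of pair. Red triangles are pairs that hold CKD replicate 2 and lie at 0.284 to 0.391, above the blue circles, which are all other pairs and reach 0.279.

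The 3 CKD kidneys left the range of the controls in different genes and to different extents. In CKD replicate 1, 42.7% of tested genes lay outside the range of the 3 controls, in CKD replicate 3 51.7%, and in CKD replicate 2 63.7%. By rank alone, a further library without any difference would be about as likely to lie outside a range of 3 libraries as inside it. Set against that, CKD replicate 1 lay outside in fewer genes, CKD replicate 3 in about as many and CKD replicate 2 in more. The share for a control library was not computed, so these percentages alone do not show a change with disease. CKD replicate 2 had 1743 genes above all controls and at least 2-fold over their mean on the log2 scale, against 741 in CKD replicate 1 and 489 in CKD replicate 3. Below all controls by the same margin were 405, 524 and 669 genes in CKD replicates 1, 2 and 3. CKD replicates 1 and 2 therefore had more genes far above than far below the controls, and CKD replicate 3 had more below. Genes at least 2-fold above the controls in CKD replicate 2 alone, with both other CKD libraries inside the control range, numbered 523. The same count was 110 for CKD replicate 1 and 119 for CKD replicate 3. Genes 2-fold below the controls in 1 CKD library alone numbered 89, 130 and 143 in replicates 1, 2 and 3. The clearest case among abundant genes was the gene that ranked 42nd by level. It stood at 6652 CPM in CKD replicate 2, against 460 and 413 CPM in CKD replicates 1 and 3 and 401 to 706 CPM in the controls.

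**Figure D3:**
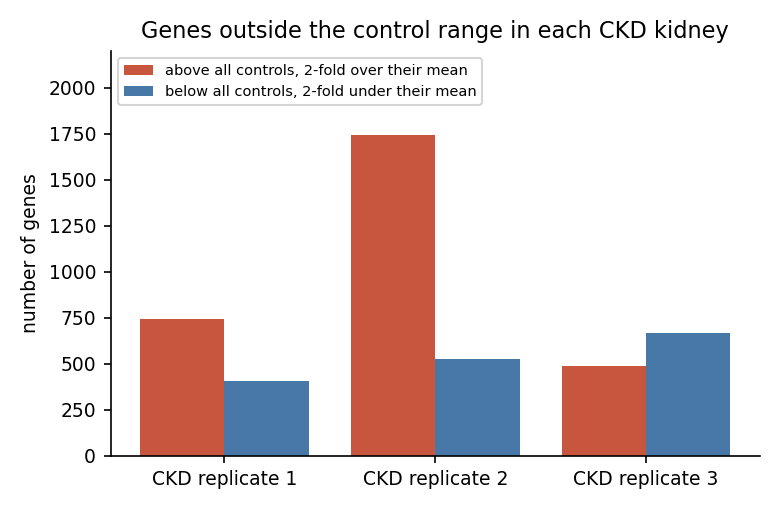
Number of genes (vertical axis) above all 3 controls and at least 2-fold over their mean (red bars), or below all 3 and at least 2-fold under their mean (blue bars), in each CKD library. CKD replicate 2 has 1743 genes above, and CKD replicate 3 is the library with more genes below (669) than above (489).

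The direction of the larger differences rested on that library. By the fitted fold 904 genes (5.14% of those tested) were 2-fold higher or more and 399 (2.27%) 2-fold lower or more in CKD kidneys. Without CKD replicate 2 these counts were 608 and 730, so that more genes were lower than higher. Without any other single library of the 6 the higher genes outnumbered the lower, with 1085 to 1356 higher and 435 to 655 lower. Most of these genes had low levels. Of the 904 higher genes 726 were under 2 CPM, and 121 had 0 counts in all controls, where the size of a fitted fold is not a measured quantity. Of the 399 lower genes 339 were under 2 CPM and 39 had 0 counts in all CKD libraries. The 904 and 399 also depended on the filter and fit shared with the MSC libraries. With the 6 control and CKD libraries alone, 16722 genes were tested and the counts were 593 and 246. Among the genes with the lowest level they fell from 803 to 492 higher and from 358 to 205 lower. At higher levels the counts did not change.

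Groups of genes set by level also changed direction with single libraries, and the genes of highest level also with the scaling and the filter. Among the 5862 genes with the lowest level, 292 genes with an unadjusted p under 0.05 were higher in CKD kidneys and 95 lower, and without CKD replicate 2 the counts were 125 and 152. Among the 5861 genes with the highest level 169 were higher and 206 lower, against 103 and 78 without that library and 127 and 110 without control replicate 1. The genes of highest level under that p were 215 higher and 108 lower with library size as the only scaling, 193 and 177 with upper-quartile scaling, and 211 and 167 without the filter on low counts, so they had no stable direction. Among the 100 most abundant genes of the 6 libraries, from 883 to 44999 CPM, 72 had a negative and 28 a positive log2 fold, with a median of -0.12. Without CKD replicate 2 the numbers were 50 and 50, and without control replicate 3 they were 59 and 41. The most abundant gene of all stood at 43731, 44416 and 58596 CPM in control replicates 1, 2 and 3 and at 45779, 34982 and 42491 CPM in the CKD replicates. Its groups overlapped and its log2 fold was -0.25 ± 0.25 (SE, edgeR adjusted p = 0.864). Of these 100 genes 2 had an unadjusted edgeR p under 0.05, both with a positive log2 fold. The gene that ranked 42nd by level was among them, and it was high in CKD replicate 2 alone. In 7 of these 100 genes (7%, against 11.8% of all tested genes) the groups did not overlap.

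**Figure D4:**
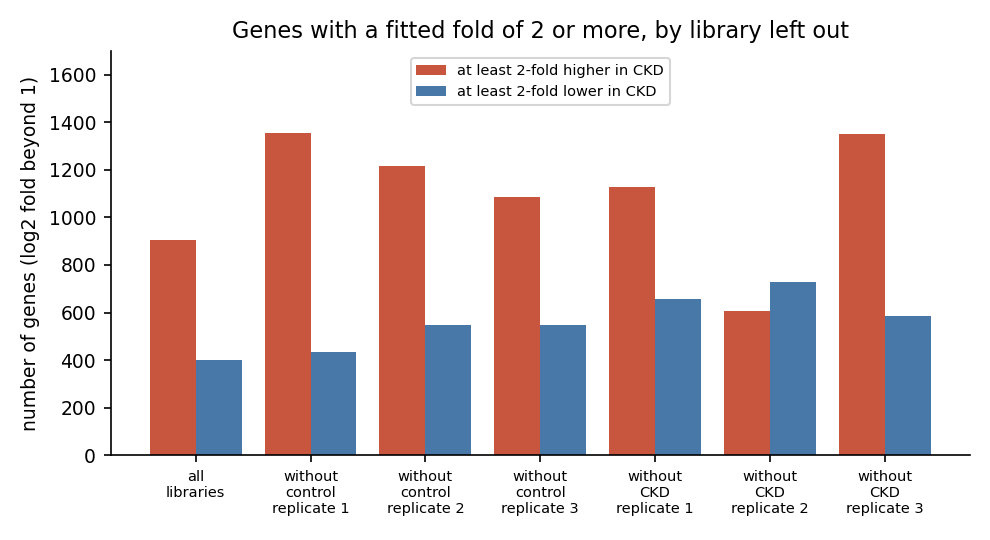
Number of genes (vertical axis) with a fitted fold of at least 2 between CKD and control kidneys, higher in CKD (red bars) or lower (blue bars), with all libraries and with each control or CKD library left out in turn. The counts are 904 higher and 399 lower with all libraries, and 608 and 730 without CKD replicate 2, the setting in which the lower genes are more numerous. The 6 control and CKD libraries fitted alone give 593 and 246.

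Separation of the groups was described by the genes whose 3 CKD and 3 control values did not overlap. These were 2074 of 17584 (11.8%), with 1048 (5.96%) higher and 1026 (5.83%) lower in CKD kidneys. Directions were thus nearly even, while scaling by library size alone gave 1115 higher and 680 lower. The shifts in these genes were small as well, with a median absolute log2 fold of 0.36. Full separation of 3 libraries from 3 is the outcome at which an exact permutation test reaches its smallest p, 0.1. About that share of genes would separate without any difference between the groups, so the 11.8% lies near it. Of the 1151 genes with an unadjusted p under 0.05, 807 had no overlap and 344 did overlap. The overlapping ones had larger fitted folds, with a median absolute log2 fold of 1.14 against 0.53, and 234 of the 344 were higher in CKD kidneys. Among the 13143 genes with a level of at least 2 CPM, 46 without overlap were 2-fold or more higher and 33 as much lower in CKD kidneys.

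A stricter description asks for a gap of at least 2-fold between the nearest libraries of both groups. At a level of at least 2 CPM, 2 genes met this as higher and 8 as lower in CKD kidneys. Without CKD replicate 2 they were 5 and 10. None of the 10 genes passed the adjusted edgeR threshold, and their groups were separated by the choice itself. DESeq2 called both higher genes and 5 of the 8 lower ones. The first of the 2 higher genes was ENSRNOG00000047571, described with the named genes. The other had 0.527, 1.30 and 1.33 CPM in controls and 4.78, 4.91 and 4.89 CPM in CKD kidneys, where the 3 libraries were close to each other. Its log2 fold was 2.20 ± 0.35 (SE, edgeR adjusted p = 0.41), and the MSC kidneys, at 1.32, 1.52 and 1.29 CPM, lay at the level of the controls.

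Among the 8 lower genes 2 of the more abundant had similar values. The first had 38.3, 36.9 and 29.2 CPM in controls and 9.76, 8.79 and 5.36 CPM in CKD kidneys, a log2 fold of -2.12 ± 0.34 (SE, edgeR adjusted p = 0.41). The second had 39.4, 38.8 and 30.5 CPM in controls and 11.6, 11.1 and 6.51 CPM in CKD kidneys, a log2 fold of -1.90 ± 0.32 (SE, edgeR adjusted p = 0.445). In both genes replicate 3 was the lowest library of its group. Without symbols it was not checked whether these are near-identical copies that share reads. Another of the 8 was steady in controls, at 6.78, 6.48 and 6.44 CPM, and had 1.37, 2.96 and 2.99 CPM in CKD kidneys, with a log2 fold of -1.43 ± 0.29 (SE, edgeR adjusted p = 0.574). The remaining genes of the 8, apart from the 2 named ones, had 2.30 to 8.82 CPM in controls and 0.0319 to 1.94 CPM in CKD kidneys.

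By the naming rule, ENSRNOG00000000368 and ENSRNOG00000058207 had the largest negative and ENSRNOG00000047571 and ENSRNOG00000048167 the largest positive log2 folds. The rule took genes with an unadjusted p under 0.05, no overlap between the groups and an average log2 CPM of at least 1 over all 9 libraries. It left 667 genes, 349 higher and 318 lower. Since these conditions use the CKD and control values, the separation of the 4 genes is a property of the choice.

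ENSRNOG00000000368 had the smallest p of all genes. It stood at 4.44, 14.7 and 14.5 CPM in control replicates 1, 2 and 3 and at 0.825, 0.558 and 0.414 CPM in the CKD replicates. All 3 CKD libraries were low and close to each other, and control replicate 1 was the lowest control. Its mean was 11.2 ± 5.88 CPM in control and 0.599 ± 0.209 CPM in CKD kidneys (SD, n = 3 each). The log2 fold was -4.22 ± 0.51 (SE, edgeR adjusted p = 0.207), with a 95% interval from -5.37 to -3.08. The fold ran from -4.59 to -3.98 over the alternatives. Its edgeR adjusted p was 0.00818 without control replicate 1, the low control, and 0.614 without CKD replicate 2, while DESeq2 gave an adjusted p of 7.059e-15 and limma-voom 0.793. MSC kidneys had 8.99, 9.81 and 14.4 CPM, inside the range of the controls and above every CKD kidney.

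ENSRNOG00000058207 stood at 12.3, 5.92 and 10.3 CPM in controls and had 0, 0 and 134 counts in CKD replicates 1, 2 and 3, the last equal to 2.41 CPM. The transcript was thus at 0 counts in 2 CKD kidneys and within 2.46-fold of the lowest control in CKD replicate 3. Its log2 fold was -3.58 ± 1.49 (SE, edgeR adjusted p = 0.756). Without CKD replicate 3, the library with counts, the fold was -11.98 (edgeR adjusted p = 0.234), a size that depends on how the model treats 0 counts. With limma-voom the fold was -7.44. The MSC kidneys were low too, with 0, 10 and 4 counts.

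ENSRNOG00000047571 had 0, 4 and 0 counts in controls and 650, 29 and 58 counts in CKD replicates 1, 2 and 3. In CPM the CKD kidneys stood at 11.4, 0.462 and 1.04, so that replicate 1 was 24.7 times replicate 2. Its log2 fold was 7.27 ± 1.71 (SE, edgeR adjusted p = 0.756). It was 4.75 without CKD replicate 1, the high library, and 10.84 without control replicate 2, the control with counts. DESeq2 called this gene with an adjusted p of 0.00461, while over the other alternatives the adjusted p was never under the threshold. MSC kidneys had 14.7, 27.3 and 5.31 CPM.

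ENSRNOG00000048167 had 0 counts in all 3 controls and 8, 11 and 4 counts in the CKD kidneys, or 0.141, 0.175 and 0.0719 CPM. Its mean CKD level was 2.23 times a limit of 3 counts in each control library. That ratio leaves out the counting error of the few CKD counts, so it is no lower bound on the fold. The fitted log2 fold of 5.82 ± 1.87 (SE, edgeR adjusted p = 0.756) depends on the handling of 0 counts and is not a measured size. The gene met the level condition through the MSC kidneys, at 12.9, 2.61 and 1.97 CPM, and it was not tested when the 6 control and CKD libraries were fitted alone.

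**Figure D5:**
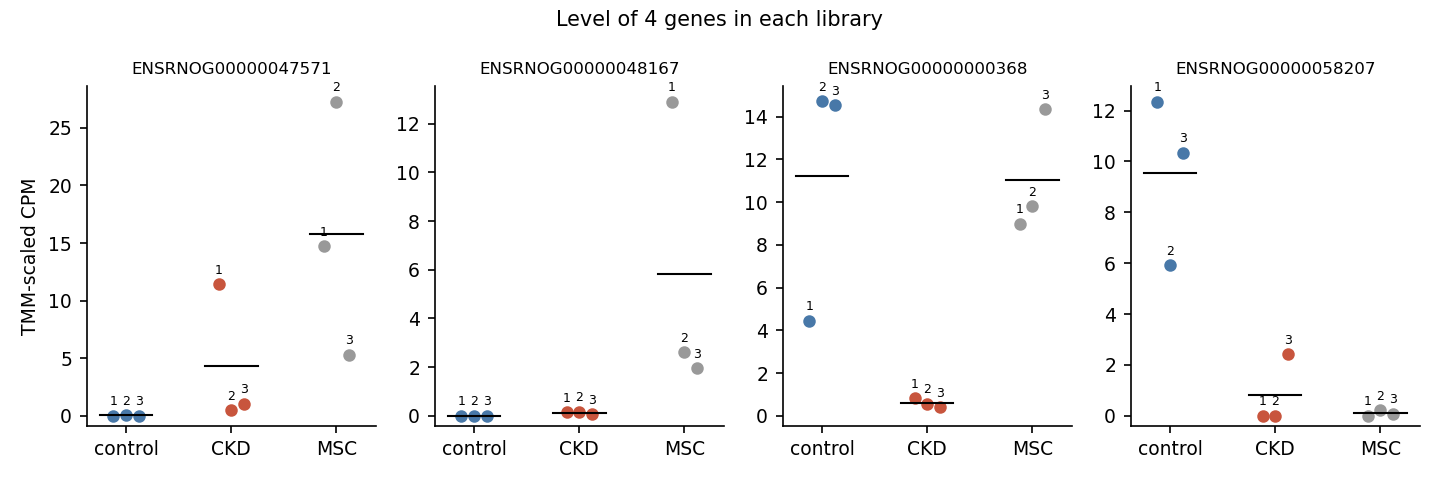
TMM-scaled CPM (vertical axis, own linear scale in each panel) of the 4 named genes in every control, CKD and MSC library, with the replicate number beside each point and the group mean as a line. ENSRNOG00000000368 is low in all 3 CKD kidneys (0.414 to 0.825 CPM), whereas 1 CKD library carries most of the CKD mean of ENSRNOG00000047571 and of ENSRNOG00000058207.

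Few genes were at 0 counts in all controls and present in every CKD kidney, or the reverse. Of all 22637 identifiers 9 (0.0398%) were at 0 counts in the 3 controls with 10 counts or more per CKD kidney, and 0 showed the opposite. The most abundant of the 9 had 109, 174 and 177 counts in CKD replicates 1, 2 and 3, or 1.91 to 3.18 CPM, and its mean was 45.3 times a limit of 3 counts in each control library. It had the second smallest p of all genes (edgeR adjusted p = 0.207), and the MSC kidneys had 18, 6 and 4 counts. The other 8 genes had 10 to 46 counts in the CKD kidneys, and 2 of the 9 met a minimum of 20 counts. In MSC kidneys 4 of the 9 had at least 10 counts in every library. These counts moved with single libraries, as 28 genes were at 0 in controls and present in CKD without CKD replicate 3, 21 without control replicate 2, 19 without CKD replicate 1, 17 without control replicate 3, 14 without control replicate 1 and 12 without CKD replicate 2. The opposite pattern then had 1 to 6 genes.

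The 71 genes called by DESeq2 were mostly separated between the groups. In 65 of them the groups did not overlap, against 11.8% of all tested genes, and all 71 had an unadjusted edgeR p under 0.05. The 71 were called on the same counts, so both traits follow largely from the choice and are no independent evidence. The 43 higher genes had a median absolute log2 fold of 4.22 at a median level of 1.31 CPM, and 17 of them had 0 counts in all controls. The 28 lower genes had a median of 1.35 at a median level of 11.4 CPM, and 3 of them had 0 counts in all CKD libraries. The fitted folds of genes at 0 in a group are no measured sizes, so these medians describe the model. Without CKD replicate 3 DESeq2 called 259 genes, without CKD replicate 1 171 and without CKD replicate 2 44, of which 56, 52 and 27 were among the 71. Without control replicates 1, 2 and 3 it called 68, 68 and 81 genes, of which 37, 40 and 32 were among the 71, and with the 6 control and CKD libraries alone it called 54, of which 35 were. Called in all 8 settings were 15 genes, 10 higher and 5 lower in CKD kidneys, and ENSRNOG00000000368 was the 1 named gene among them.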

How the data were processed

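RNA was polyadenylated kidney RNA in strand-specific libraries, per the labels' protocols. The submitters' processing notes name cutadapt, HISAT2, StringTie and the build Rnor_6.0; for the counter, annotation, strand setting and filters the sources used here give nothing. The deposited table, as the authors made it, holds raw whole-number counts for 22637 identifiers in 9 columns, each matched to a sample by its description.

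The test was edgeR 4.0.16's, run in R 4.3.3. Its filterByExpr kept 17584 genes, holding at least 99.98% of the counts of each of the 6 libraries, TMM scaling followed, and a robust quasi-likelihood model with group as its term was fitted to all 9 libraries. P-values were two-sided and adjusted by Benjamini and Hochberg over the whole table of tested genes. Standard errors were derived from the F statistic. Log2 CPM used a prior count of 2. Scripts were tested on simulated data. limma 3.58.1 (voom) and DESeq2 1.42.0 were alternatives, beside scaling, filter, a fit of 6 libraries, a replicate block and single libraries left out.

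The gene table used for naming held 47357 genes, 0 with an Ensembl identifier. The 26 planned gene lists were therefore not computed, and the naming rule (10 genes in each direction by fold, among genes with p under 0.05, no overlap and average log2 CPM of at least 1) stopped at 2 in each direction. Members, lists and rules were chosen with earlier results of these data known. The counts at a 2-fold fold or gap, the groups by level, the non-overlap and DESeq2 counts without single libraries and DESeq2 on 6 libraries were chosen after seeing the data.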

Additional observations from a re-analysis of the deposited data

How the results depend on the processing

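The count of genes called by edgeR stayed at 0 under every scaling, without the filter, with limma-voom, with the 6 libraries alone and with the replicate block, and was 71 with DESeq2. Without single libraries it ran from 0 to 2: 2 without control replicate 1, ENSRNOG00000000368 among them, 1 without CKD replicate 1 and 1 without CKD replicate 3. Genes under an unadjusted p of 0.05 ran from 686 to 1471 without single libraries, with 326 to 981 higher and 305 to 669 lower, and library size alone gave 731 higher and 260 lower. limma-voom gave 498 higher and 517 lower. Genes at least 2-fold higher ran from 608 to 1356 and lower from 435 to 730 without single libraries, were 2393 and 1654 without the filter, which adds scarce genes, and 593 and 246 with the 6 libraries alone, where fewer genes were tested. Genes without overlap were 1795 by library size alone, with 680 lower, and 3294 without CKD replicate 2, with 1623 higher and 1671 lower, since 3 against 2 libraries separate more often. Genes at 0 in controls and present in CKD ran from 12 to 28 without single libraries, and the opposite from 1 to 6. Both counts can only stay or rise when a library is left out. At a minimum of 20 counts the first was 2. DESeq2 calls ran from 44 to 259 without single libraries. Where no cause is named, the cause was not tested. All 4 named genes kept their sign wherever they were tested. The naming rule asked for groups without overlap, so this was largely fixed by the choice. The median log2 fold over all tested genes was 0.0045, and at most 0.072 under another scaling (library size alone). The share of the 10 most abundant genes in CKD minus that in control kidneys was -1.20 percentage points, and ran from -1.65 to -0.612 without single libraries. For the 100 most abundant genes it was -1.74.

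With the replicate block, 0 genes were called (smallest adjusted p 0.0577), 1297 had an unadjusted p under 0.05 (779 higher, 518 lower), and 882 and 435 were at least 2-fold higher and lower. No label ties a replicate number to a shared animal, batch or day. Deviations of same-numbered CKD and control libraries correlated at 0.0604, 0.0864 and 0.208 across genes. Pairs of different numbers ran from -0.169 to 0.0927, and 4 of 6 libraries correlated best with their own number. The libraries were treated as unpaired because the labels state no pairing, and a shared origin of same-numbered libraries was not tested. Planned gene lists were not computed for want of symbols. Near the limit of 3 counts, differences were not detectable at this depth.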
